A study of Mus musculus with 28 samples.

Results

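Hs6st3, Col5a3, Dcn and P4ha2 are 4 genes of the extracellular matrix whose liver RNA was followed here across fasting, a fat-rich diet and normal feeding in mice. They were taken as the spots that carry these symbols in the annotation of the array, 8 spots for 4 genes, out of 9758 named spots for 4799 genes. They had been picked with values of these same comparisons in view, so their ratios and the adjusted p-values of the fit are given as a description and not as an independent test.

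The study set liver RNA of 15 mice of the inbred strain C57BL/6 side by side on 28 arrays with 2 dyes. The fasted mice (numbers 11 to 15) had chow for 2 weeks and then no food for 16 hours, the high-fat mice (6 to 10) had a fat-rich diet for 2 weeks, and the control mice (1 to 5) had chow for 2 weeks. All were 12 to 16 weeks old, and the sources used here do not give their sex. Each array carried the RNA of a pair of mice, and each pair was measured on 2 arrays, described as a dye swap, which counted as 1 measurement. In all 14 pairs were run: fasted with control livers in 4, high-fat with control livers in 5 and fasted with high-fat livers in 5. The 3 comparisons share mice, so they are not independent of each other.

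The extracellular matrix of the liver is a sparse scaffold around the sinusoids and the portal tracts, made largely by stellate cells and fibroblasts. Its fibrils are built from collagen chains that must be hydroxylated on proline before they fold into a stable triple helix, and small proteoglycans such as decorin bind these fibrils. Heparan sulfate is a sugar chain carried by core proteins on the surface of hepatocytes and in the matrix, where its sulfate groups set which growth factors, enzymes and lipoprotein particles it binds. Hs6st3 encodes a heparan sulfate 6-O-sulfotransferase, which adds sulfate to the glucosamine of that chain. Col5a3 encodes a chain of type V collagen, a minor collagen of fibrils. Dcn encodes decorin, a small leucine-rich proteoglycan that binds collagen and growth factors. P4ha2 encodes a catalytic subunit of collagen prolyl 4-hydroxylase.

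Hs6st3 lies on chromosome 14, Col5a3 on chromosome 9, Dcn on chromosome 10 and P4ha2 on chromosome 11. Promoters are shown because Hs6st3 and Col5a3 were both lower after the fat-rich diet and Col5a3 and P4ha2 were both lower after the fast. The 250 bases before the annotated start come from a RefSeq table of the mouse assembly GRCm38.p6, which matched 3 of the 4 genes, all but Dcn. Capitals mark matches, read on both strands, to 4 motifs that do not overlap here. These were the GC box, written GGGCGG, the hypoxia response core, written ACGTG, the CCAAT box, which its name spells, and the TATA box, searched as TATAAA.
Hs6st3, chr14:119138015-119138264, plus strand: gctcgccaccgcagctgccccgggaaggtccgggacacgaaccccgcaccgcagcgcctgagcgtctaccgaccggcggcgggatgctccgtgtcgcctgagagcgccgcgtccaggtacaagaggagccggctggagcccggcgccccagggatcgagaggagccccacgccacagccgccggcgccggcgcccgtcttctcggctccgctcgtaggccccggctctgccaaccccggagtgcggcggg
Col5a3, chr9:20815068-20815317, minus strand: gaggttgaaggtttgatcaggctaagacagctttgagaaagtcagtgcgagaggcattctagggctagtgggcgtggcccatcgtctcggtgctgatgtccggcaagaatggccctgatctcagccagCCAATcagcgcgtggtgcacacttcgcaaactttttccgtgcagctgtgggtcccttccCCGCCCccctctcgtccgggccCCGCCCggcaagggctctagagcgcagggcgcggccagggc
P4ha2, chr11:54100674-54100923, plus strand: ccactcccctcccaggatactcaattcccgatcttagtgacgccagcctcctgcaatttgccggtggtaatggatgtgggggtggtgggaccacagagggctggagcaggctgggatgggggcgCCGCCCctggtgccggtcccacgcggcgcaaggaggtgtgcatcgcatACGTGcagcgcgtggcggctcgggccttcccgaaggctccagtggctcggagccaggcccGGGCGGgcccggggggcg
The window of Hs6st3 held 0 matches to any of the 4 motifs and 36 CG dinucleotides, against a median of 6 over 32851 promoters of the same length, and 2.58% of those promoters held as many. In the Col5a3 window there were 2 GC boxes, 1 CCAAT box and 17 CG dinucleotides, and 23.5% of promoters held as many CG. P4ha2 had 2 GC boxes, 1 hypoxia response core and 21 CG dinucleotides, and 16.3% of promoters held as many CG. All 3 windows thus lay above the median CG count. Of all 32851 promoters, 32.7% held a GC box, 33.8% a CCAAT box, 16.6% a hypoxia response core and 12.4% a TATA box. A match is a description of these letters and not a site that was measured.

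Values are ratios on a log scale. The base was taken as 2, and a positive value was read as higher in the liver named first in the text, which is the likely direction of the deposited ratios but is not stated by the authors. Turning it would exchange higher and lower for every gene. That the dyes were exchanged on the second array of each pair was taken from the design text. The dyes listed for the second arrays, whose titles name the livers in reverse order, would leave them unexchanged if channels follow titles. In that case the values called a dye effect here would hold the difference between the livers, and the means given would not. All 14 pairs were fitted together with limma, and a gene was called where its adjusted p over all 11457 features was under 0.05. Spot brightness is not part of the deposited values, so the level of a gene against background, or the level of liver marker genes in each sample, cannot be read from them. How precise a value is depends on how many pairs it rests on. The arrays of a swap, which should mirror each other before they are turned the same way, correlated with r from -0.525 to 0.301 over all spots, and r was positive in 9 of 14 swaps. Since the tissue is whole liver, fewer cells of a type and less RNA per cell cannot be told apart.

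In fasted livers Col5a3 was 1.24-fold and P4ha2 1.27-fold lower than in control livers, and Dcn was 1.22-fold higher. After the fat-rich diet Hs6st3 was 2.39-fold lower and Col5a3 1.26-fold lower than in control livers. Between the fasted and the high-fat livers only Hs6st3, of the 4 genes, was called, 1.93-fold higher in fasted livers. The fit thus called 3 of the 4 genes in fasted against control livers, where 9.69% of the 4799 named genes were called, 4.15% higher and 5.54% lower. In high-fat against control livers it called 2 of the 4, both lower, where 0.333% of named genes were called in either direction and 0.271% lower. In fasted against high-fat livers it called 1 of the 4, where 6.38% of named genes were called and 3.31% were called higher. Because the genes were chosen on these contrasts, nothing is read from those shares. Several calls were also fragile. With each of the 15 mice left out in turn, the fasted/control call was lost for 12 mice for Dcn and 11 for P4ha2. The high-fat/control call of Col5a3 was lost for 14. Col5a3 was 1 of the 7 named genes (0.146%) called lower both after the fast and after the fat-rich diet, next to Lgals1, Saa2, Car14, Lyz1, Madcam1 and Pebp1, and both of these contrasts use the same control mice.

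**Figure D1:**
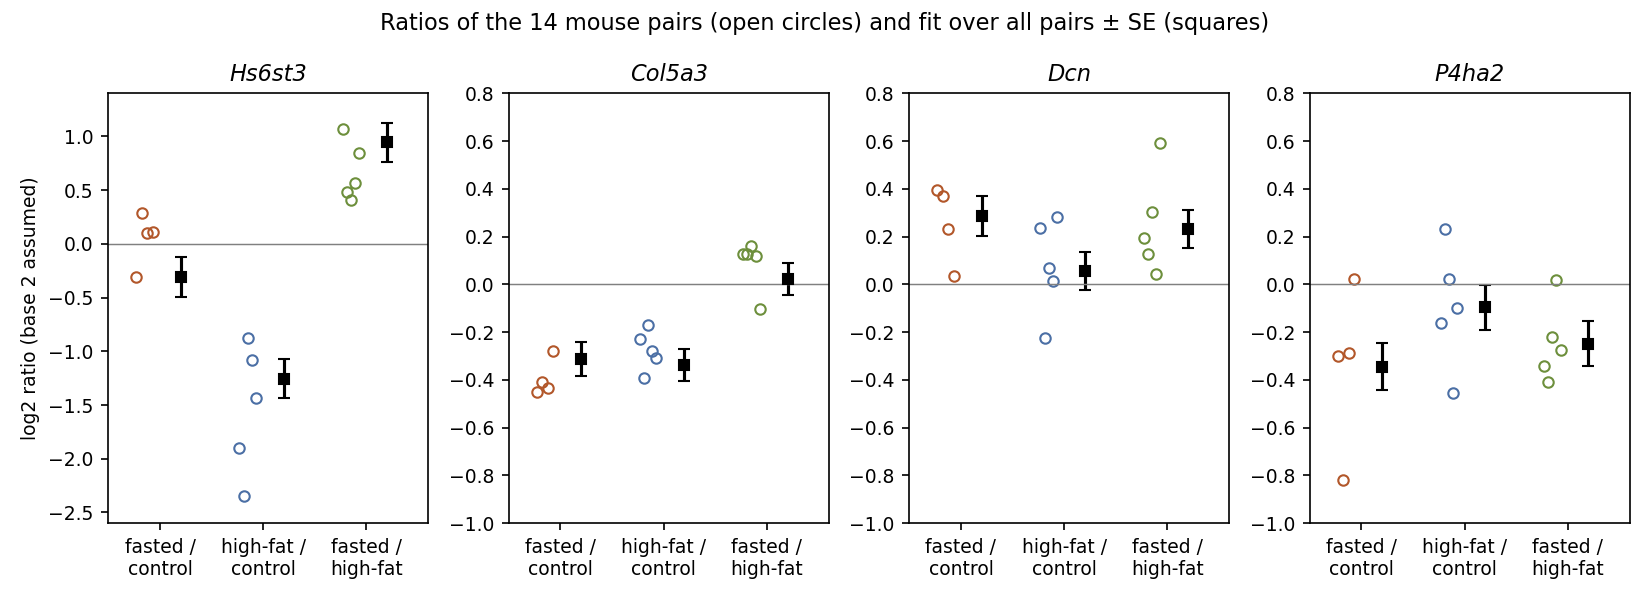
Log2 ratios of the 4 genes in every mouse pair (open circles, each the mean of a dye swap) and in the fit over all 14 pairs (squares, bars ± SE), for fasted over control, high-fat over control and fasted over high-fat livers; the vertical scale of Hs6st3 is wider than that of the other genes. The 5 high-fat/control ratios of Hs6st3 lie between -2.35 and -0.88, below all of its other ratios, while those of Col5a3 lie below 0 in both comparisons with control livers.

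Hs6st3 showed the widest differences of the 4 genes. In the high-fat/control pairs its log2 ratio was -1.90 for mice 8 and 4, -2.35 for mice 10 and 3, -0.88 for mice 7 and 5, -1.08 for mice 9 and 2 and -1.44 for mice 6 and 1. Every pair was well below 0, and so were all 10 single arrays after turning, the nearest to 0 at -0.71. Before turning, both arrays of each of these pairs thus had opposite signs, and the same held in all 5 fasted/high-fat pairs. The direct mean was -1.53 ± 0.60 (SD, n = 5 pairs). With all pairs in the fit the log2 ratio was -1.26 ± 0.18 (SE, 95% interval -1.64 to -0.87), with an adjusted p of 0.0026 by limma. That was the fourth lowest ratio of the 4799 named genes, and by p Hs6st3 stood at rank 5.

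The fasted/high-fat pairs showed the reverse. The log2 ratio of Hs6st3 was 1.07 for mice 13 and 8, 0.49 for mice 12 and 6, 0.41 for mice 11 and 9, 0.57 for mice 14 and 7 and 0.84 for mice 15 and 10. All 5 pairs and all 10 arrays lay above 0, with a direct mean of 0.68 ± 0.27 (SD, n = 5). The fitted log2 ratio was 0.95 ± 0.18 (SE, adjusted p = 0.00365 by limma). Across named genes 4.63% were lower in every high-fat/control pair, and 12.0% were higher in every fasted/high-fat pair.

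In fasted against control livers Hs6st3 was not called. Their pairs gave -0.31 for mice 11 and 4, 0.29 for mice 15 and 2, 0.11 for mice 13 and 5 and 0.11 for mice 14 and 3, on both sides of 0. The direct mean was 0.05 ± 0.25 (SD, n = 4), whereas the fit over all pairs gave -0.31 ± 0.19 (SE, 95% interval -0.71 to 0.09, adjusted p = 0.425 by limma). With the direct pairs alone the sign was thus turned.

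The fit also draws on a second route to the same contrast. Fasted over control livers can be read directly, or through the high-fat livers by adding the fasted/high-fat and the high-fat/control ratios. For Hs6st3 the direct route gave 0.05 ± 0.19 and the indirect route -0.85 ± 0.22 (SE), a difference of 0.90 ± 0.27 on the log2 scale. Among named genes 0.271% had a difference as large, and the median size was 0.12. By limma its unadjusted p was 0.00481 and its adjusted p 0.906. No named gene (0 of 4799) passed the adjusted threshold for this difference, while 188 (3.92%) had an unadjusted p under 0.05. The same difference in size separates the direct from the indirect route for high-fat over control and for fasted over high-fat livers. The fitted values of Hs6st3 there, -1.26 (2.39-fold) and 0.95 (1.93-fold), thus average routes that differ. The direct means were -1.53 and 0.68. This comparison of routes was added after the values were seen.

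For the other genes the routes lay closer together. Col5a3 had -0.39 ± 0.08 directly and -0.19 ± 0.10 through the high-fat livers. Dcn had 0.26 ± 0.10 and 0.33 ± 0.13, and P4ha2 had -0.35 ± 0.13 and -0.34 ± 0.15 (all SE) in the same order. The differences, direct minus indirect, were -0.20 ± 0.12 for Col5a3, -0.07 ± 0.15 for Dcn and -0.01 ± 0.19 for P4ha2 (SE).

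**Figure D2:**
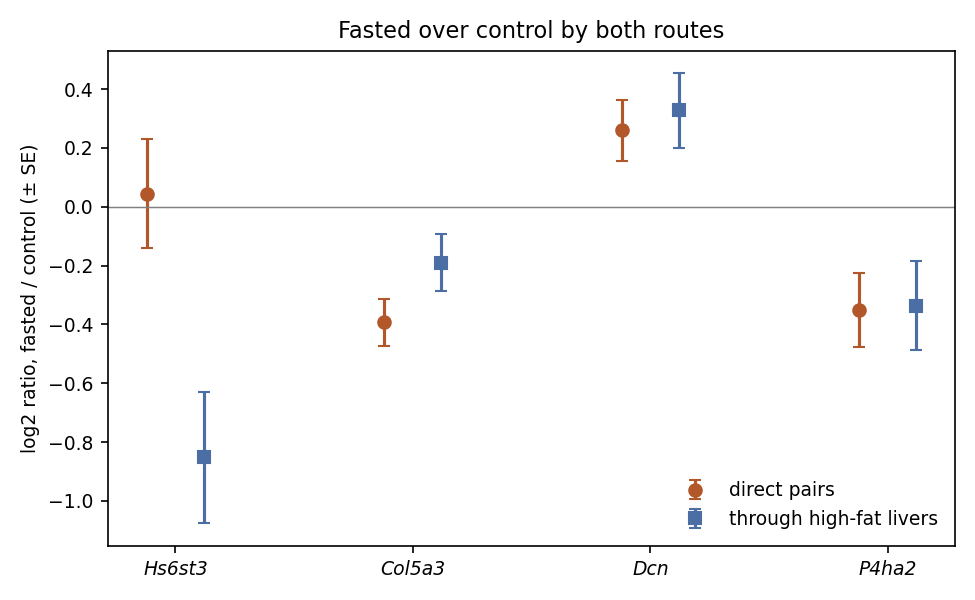
Log2 ratio of fasted over control livers for the 4 genes, from the direct pairs (circles) and through the high-fat livers (squares), bars ± SE. The values of Hs6st3 are 0.05 and -0.85, while the error bars of both routes overlap for Dcn and P4ha2 and come close to each other for Col5a3.

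The hybridisations link 12 of the mice in a closed ring of 12 pairs, 4 mice of each group, which gives every such mouse a level relative to the mean of the 4 control mice. Around such a ring the signed ratios should add up to 0. For Hs6st3 the sum was 3.50 in size, and 0.229% of named genes had a sum as large, against a median of 0.48. The ring passes through control, fasted and high-fat mice in a fixed order. Its sum therefore largely restates the route difference given above and is not a further observation. The sums were 0.80 for Col5a3, 0.20 for Dcn and 0.21 for P4ha2, and 27.8%, 77.3% and 76.3% of named genes had sums as large. Each mouse enters the sum with both signs, so its own level cancels and the sum measures error of the ratios. If the error were independent between ratios, that single sum would give an SD per ratio of 1.01 for Hs6st3 and 0.23 for Col5a3. It would give 0.06 for Dcn and 0.06 for P4ha2. The SDs of the direct pairs were 0.25, 0.60 and 0.27 for Hs6st3 in fasted/control, high-fat/control and fasted/high-fat pairs. For Dcn they were 0.17, 0.20 and 0.21. The SDs from the sum are thus not read as the scatter of single ratios, and errors can cancel in a small sum. With the largest sum, Hs6st3 has the least certain levels of single mice and fitted ratios from the same pairs. What lies behind this error was not tested.

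In the ring the Hs6st3 levels were -0.56, -0.20, 0.26 and -0.48 in fasted mice 11, 13, 14 and 15. They were -0.60, -1.56, -1.26 and -1.61 in high-fat mice 7 to 10 and -0.47, 0.45, 0.04 and -0.02 in control mice 2 to 5. The order of the group means was thus high-fat lowest (-1.26 ± 0.46), then fasted (-0.24 ± 0.37), then control (0 by definition, ± 0.38; SD, n = 4 mice each). All 4 high-fat mice lay below all fasted and all control mice, although high-fat 7 at -0.60 came close to fasted 11 at -0.56, and fasted and control mice overlapped. Of named genes, 2.0% were lower without overlap in high-fat than in control mice and 3.4% were higher without overlap in fasted than in high-fat mice. The other 3 mice form a chain, in which Hs6st3 was -0.95 in fasted 12 and -1.44 in high-fat 6 relative to control 1.

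**Figure D3:**
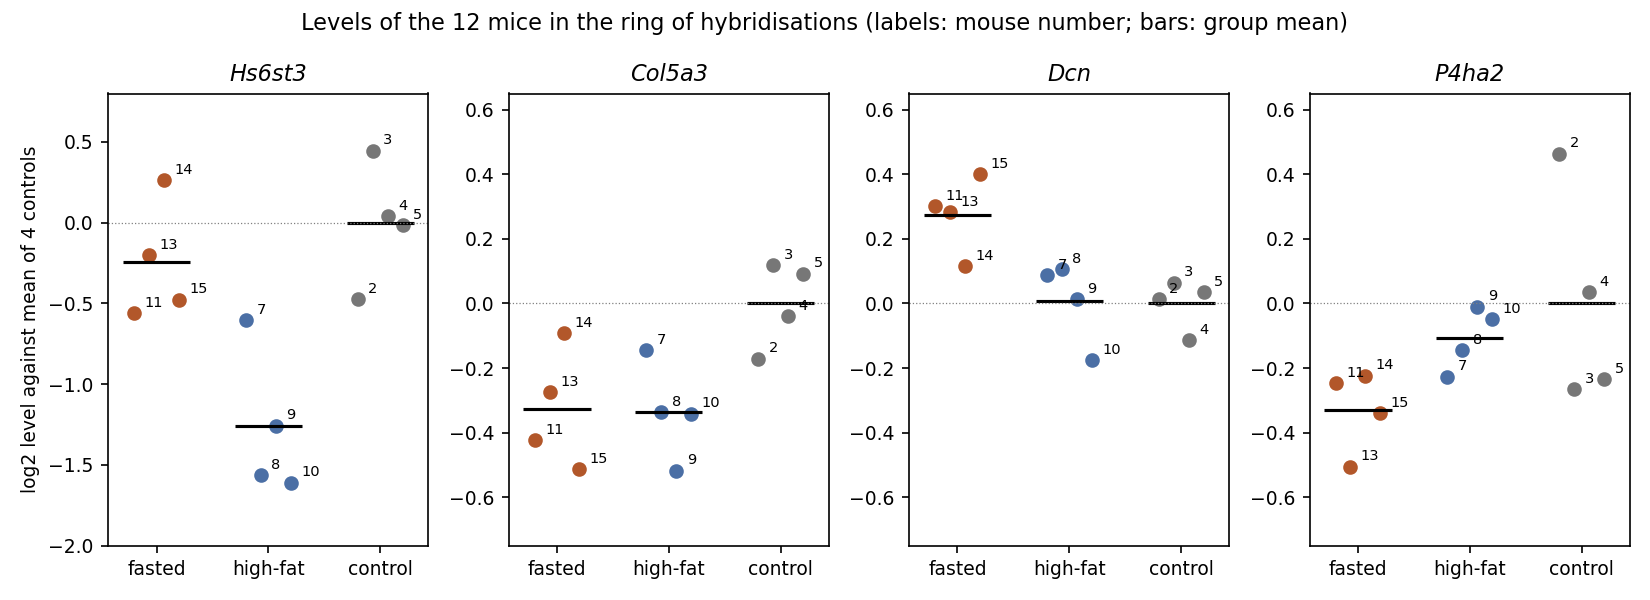
Levels of the 4 genes in the 12 mice of the ring, on the log2 scale relative to the mean of the 4 control mice; each point is 1 mouse with its number and each bar is a group mean. The high-fat mice lie lowest for Hs6st3, the fasted mice lie highest for Dcn, and the groups overlap for Col5a3 and P4ha2.

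The 2 spots of Hs6st3 followed each other over the 14 pairs, with r = 0.983 as a description, against 0.571 for Col5a3, 0.731 for Dcn and 0.798 for P4ha2. Such an r rises with the range of the ratios, which was widest for Hs6st3. In size, the median difference between the spots was largest for Hs6st3, at 0.165 on the log2 scale. It was 0.080 for Col5a3, 0.062 for Dcn and 0.094 for P4ha2. Leaving out each of the 15 mice in turn kept both calls of Hs6st3. The high-fat/control value then ran from -1.36 to -1.08 and the fasted/high-fat value from 0.84 to 1.05. Both calls held under 10 of 11 other settings and were lost with the between-mouse share of variance set to 0.9, at -1.29 and 0.92. The other 6-O-sulfotransferases measured were not called from the averaged arrays. Probe sequences were not used here, so how well these spots tell related genes apart was not checked, for the Hs6st and the Col5a genes alike. Hs6st1 had a log2 ratio of 0.08 ± 0.07 in high-fat over control livers and 0.07 ± 0.07 in fasted over high-fat livers, and Hs6st2 had 0.09 ± 0.08 and -0.17 ± 0.08 (SE). With the arrays scaled to the same spread, Hs6st2 in high-fat over control livers was at -0.04. Its arrays went opposite ways: in fasted over control livers Hs6st2 was called at -0.97 on the first arrays alone (adjusted p = 6.72e-06 by limma) and at 0.82 on the second alone (adjusted p = 0.00357 by limma). On the first arrays alone it was also called in high-fat over control livers, at -0.40, and in fasted over high-fat livers, at -0.57. Hs6st1 in fasted over control livers was called at -0.28 on the first and at 0.58 on the second arrays alone.

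Col5a3 was lower than in control livers under both conditions, by nearly the same amount. In the fasted/control pairs its log2 ratio was -0.45 for mice 11 and 4, -0.41 for mice 15 and 2, -0.43 for mice 13 and 5 and -0.28 for mice 14 and 3. The pairs lay close together, and all 8 arrays were below 0. Their mean was -0.39 ± 0.08 (SD, n = 4), and 12.0% of named genes were lower in all 4 pairs. The fit gave -0.31 ± 0.07 (SE, adjusted p = 0.00846 by limma).

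In high-fat/control pairs the log2 ratio of Col5a3 was -0.23 for mice 8 and 4, -0.39 for mice 10 and 3, -0.17 for mice 7 and 5, -0.28 for mice 9 and 2 and -0.31 for mice 6 and 1. Again every pair was below 0, as were 9 of 10 arrays, with a mean of -0.28 ± 0.08 (SD, n = 5). The fit gave -0.34 ± 0.07 (SE, adjusted p = 0.0404 by limma). This adjusted p was near the threshold. Leaving out 1 mouse moved it to between 0.0275 and 0.196, and the call held only without fasted 15. The call was also lost under 8 of 11 other settings, with values from -0.46 to -0.22. The call in fasted livers held without any 1 of the 15 mice, with values from -0.33 to -0.28, and was lost under 4 of the 11 settings, among them the first array of each swap alone, at -0.18.

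Directly compared, fasted and high-fat livers gave Col5a3 ratios of 0.13 for mice 13 and 8, 0.13 for mice 12 and 6, 0.16 for mice 11 and 9, 0.12 for mice 14 and 7 and -0.10 for mice 15 and 10. The fit put the difference at 0.02 ± 0.07 (SE, adjusted p = 0.926 by limma), with a 95% interval from -0.12 to 0.17. In the ring the fasted mice 11, 13, 14 and 15 were at -0.42, -0.27, -0.09 and -0.51, the high-fat mice 7 to 10 at -0.14, -0.34, -0.52 and -0.34 and the control mice 2 to 5 at -0.17, 0.12, -0.04 and 0.09. The group means were -0.33 ± 0.18 in fasted, -0.33 ± 0.15 in high-fat and 0 ± 0.13 in control mice (SD, n = 4 each). Control 2 overlapped with both other groups, so neither contrast was free of overlap. The partner chains of type V collagen, Col5a1 and Col5a2, had -0.18 ± 0.17 and -0.19 ± 0.20 in fasted over control livers and -0.10 ± 0.16 and -0.28 ± 0.19 in high-fat over control livers (SE). None of these passed the threshold, and their standard errors were more than 2 times those of Col5a3.

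Dcn was higher in fasted livers. The fasted/control pairs gave 0.40 for mice 11 and 4, 0.37 for mice 15 and 2, 0.23 for mice 13 and 5 and 0.03 for mice 14 and 3. All 4 were above 0, as for 10.1% of named genes, with a mean of 0.26 ± 0.17 (SD, n = 4). The fit gave 0.29 ± 0.08 (SE, adjusted p = 0.0434 by limma).

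The arrays of each swap were far apart for Dcn. On the first arrays of the fasted/control swaps it ran from 0.34 to 0.84, with a mean of 0.62, and on the second arrays from -0.27 to 0.13, with a mean of -0.10. All 4 first arrays and 1 of 4 second arrays were above 0, so before turning 3 of the 4 swaps had the same sign on both arrays, and the size of the difference rests on the average of both. Fitted on the second arrays alone, Dcn was at -0.05 in fasted over control livers, which turns its direction. Over the 14 swaps the dye effect of Dcn, the part that has the same sign on both arrays before turning, was 0.22 ± 0.21 (SD) on the log2 scale, and 16.5% of named genes had one as large. It was 0.14 ± 0.19 for Hs6st3, 0.10 ± 0.16 for Col5a3 and 0.08 ± 0.24 for P4ha2.

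**Figure D4:**
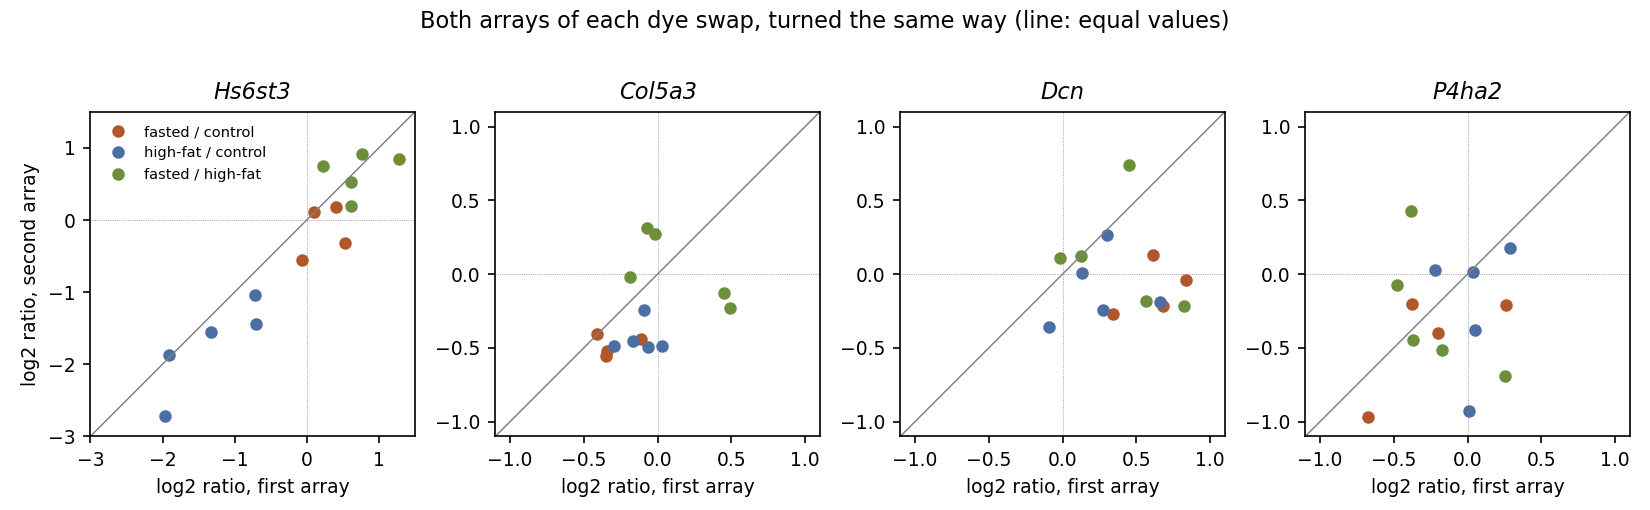
Log2 ratio on the second array of each dye swap against that on the first, after both were turned the same way, for the 4 genes; each point is a mouse pair, coloured by comparison, and the line marks equal values. The Hs6st3 points follow the line from -2.72 to 1.29, while the fasted/control points of Dcn lie to the right of it.

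Against high-fat livers the fasted livers also had more Dcn in each pair, averaged over its arrays, with 0.19 for mice 13 and 8, 0.13 for mice 12 and 6, 0.30 for mice 11 and 9, 0.04 for mice 14 and 7 and 0.59 for mice 15 and 10. Of the 10 arrays after turning, 7 were above 0 and 3 below, each of these 3 in a different pair. The mean of the pairs was 0.25 ± 0.21 (SD, n = 5), and the fitted value of 0.23 ± 0.08 (SE, adjusted p = 0.112 by limma) missed the threshold. The high-fat/control pairs lay on both sides of 0, at 0.24 for mice 8 and 4, -0.22 for mice 10 and 3, 0.07 for mice 7 and 5, 0.02 for mice 9 and 2 and 0.28 for mice 6 and 1. Their fit gave 0.05 ± 0.08 (SE, adjusted p = 0.997 by limma, 95% interval -0.11 to 0.22).

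In the ring Dcn was at 0.30, 0.28, 0.12 and 0.40 in fasted mice 11, 13, 14 and 15, at 0.09, 0.11, 0.01 and -0.18 in high-fat mice 7 to 10 and at 0.01, 0.06, -0.11 and 0.04 in control mice 2 to 5. All 4 fasted mice lay above all high-fat and all control mice, the nearest being fasted 14 and high-fat 8, at 0.12 and 0.11. Without overlap, 3.25% of named genes were higher in fasted than in control mice, and 3.4% were higher in fasted than in high-fat mice. The group means were 0.27 ± 0.12 in fasted, 0.01 ± 0.13 in high-fat and 0 ± 0.08 in control mice (SD, n = 4 each), so high-fat and control mice did not differ beyond their spread. The fasted/control call of Dcn was lost when any of 12 of the 15 mice was left out and held without fasted 14, high-fat 10 or control 3, with values from 0.24 to 0.36. It was also lost under 6 of 11 other settings. Bgn, the related proteoglycan biglycan, had -0.20 ± 0.13 in fasted over control livers (SE) and was not called.

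P4ha2 was lower in fasted livers on average, with more spread than Col5a3. The fasted/control pairs gave -0.30 for mice 11 and 4, -0.82 for mice 15 and 2, -0.29 for mice 13 and 5 and 0.02 for mice 14 and 3. Of these, 3 were below 0 and 1 was just above it, and their mean was -0.35 ± 0.35 (SD, n = 4). The fit gave -0.34 ± 0.10 (SE, adjusted p = 0.0418 by limma).

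The lowest P4ha2 pair held control 2, which stood apart from the other controls in the ring. P4ha2 was at -0.25, -0.50, -0.22 and -0.34 in fasted mice 11, 13, 14 and 15 and at -0.23, -0.14, -0.01 and -0.05 in high-fat mice 7 to 10, against 0.46, -0.26, 0.04 and -0.23 in control mice 2 to 5. Fasted mice had a mean of -0.33 ± 0.13, high-fat mice of -0.11 ± 0.10 and control mice of 0 ± 0.34 (SD, n = 4 each), and neighbouring groups in this order overlapped. Without control 2 the fitted fasted/control value was -0.22, more than 1.5 times smaller in size, and the call was lost. The call was lost for 11 of the 15 mice left out in turn and held without fasted 14, high-fat 7, high-fat 10 or control 3, with values from -0.44 to -0.22, and it was lost under 9 of 11 other settings.

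In fasted/high-fat pairs P4ha2 was at -0.34 for mice 13 and 8, -0.41 for mice 12 and 6, -0.22 for mice 11 and 9, 0.02 for mice 14 and 7 and -0.27 for mice 15 and 10. After turning, the first and second arrays had opposite signs for mice 11 and 9 (0.25 and -0.69) and mice 14 and 7 (-0.38 and 0.43). The fitted value of -0.25 ± 0.09 (SE, adjusted p = 0.165 by limma) missed the threshold. High-fat/control pairs were scattered around 0, at -0.16 for mice 8 and 4, 0.23 for mice 10 and 3, 0.02 for mice 7 and 5, -0.46 for mice 9 and 2 and -0.10 for mice 6 and 1. The pair furthest below 0 again held control 2, but its arrays were at 0.01 and -0.93, so its value rests on the second array. The fit gave -0.10 ± 0.09 (SE, adjusted p = 0.997 by limma, 95% interval -0.30 to 0.10), and with the arrays scaled to the same spread it gave 0.0034.

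The 4 genes differed in their patterns. Over the 14 pairs, which share mice and arrays, the uncentred correlation of Hs6st3 with Col5a3 was 0.58, that of Dcn with P4ha2 was -0.75 and the others lay between -0.44 and 0.44. Named genes with the ratios most like those of each member were taken by the same measure. It compares the pattern of the ratios and not their size. For Hs6st3 these genes were Cyp3a41a (r = 0.898), Pfkp (0.895) and Tcn2 (0.885). Pfkp at -0.23 ± 0.06 and Tcn2 at -0.19 ± 0.06 in high-fat over control livers (SE) were far smaller in size than Hs6st3. Neither was called in any comparison. Cyp3a41a, a cytochrome P450, differed far more than Hs6st3, with -3.15 ± 0.19 in high-fat over control and 3.06 ± 0.19 in fasted over high-fat livers (SE, both called). Its routes agreed more closely than those of Hs6st3, with a fasted/control value of -0.14 ± 0.26 directly and -0.02 ± 0.31 through the high-fat livers.

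Nearest to Col5a3 were Car14, a carbonic anhydrase (r = 0.883), Pnkd (0.840) and Lgals1, which encodes galectin-1 (0.837). Car14 had -0.51 ± 0.10 in fasted over control and -0.71 ± 0.10 in high-fat over control livers (SE). Dcn was nearest to Acadm, the medium-chain acyl-CoA dehydrogenase (0.887), Ctsl, which encodes the protease cathepsin L (0.887), and Ccn2, a connective tissue growth factor (0.877). Ccn2 was higher in fasted than in control livers, by 0.70 ± 0.15 (SE, adjusted p = 0.0055 by limma), and at -0.06 ± 0.14 in high-fat over control livers. P4ha2 was nearest to Hsd17b2, a hydroxysteroid dehydrogenase (0.937), Rnd2 (0.935) and Gla, the lysosomal alpha-galactosidase (0.929). Gla was at -0.12 ± 0.07 in fasted over control livers (SE) and was not called in any comparison.

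The wider pathways around the 4 genes were followed with 5 lists, counted here without the 4 genes. Of 42 heparan sulfate enzymes and transporters listed, 19 others were measured. In fasted over control livers 3 of the 19 fell and 0 rose, where 5.54% of all named genes were called lower and 4.15% higher. Idua, a lysosomal enzyme that breaks down heparan sulfate, was at -0.50 ± 0.08 (SE, adjusted p = 0.000715 by limma). Extl3, which helps start the chain, was at -0.30 ± 0.07 (adjusted p = 0.0109) and Naglu, another lysosomal enzyme of its breakdown, at -0.32 ± 0.09 (adjusted p = 0.0487). Gusb of the same list went the other way, at 0.36 ± 0.11 (SE), and missed the threshold (adjusted p = 0.0655 by limma). Against high-fat livers Gusb was also at 0.36 ± 0.11 (SE, adjusted p = 0.0660 by limma). Without adjustment 4 of the 19 were lower and 2 higher in fasted over control livers at a p under 0.05. The Idua call held without any 1 mouse and was lost under 3 of 11 other settings. The Extl3 call was lost without fasted 11, fasted 13, control 4 or control 5 and under 3 settings. The Naglu call was lost for 9 of the 15 mice, held without fasted 12, fasted 15, high-fat 6, high-fat 7, high-fat 10 or control 2, and was lost under 6 settings, with scaled arrays giving -0.18. Against high-fat livers the same 3 of the 19 were lower in fasted livers, Idua at -0.47 ± 0.08, Naglu at -0.42 ± 0.09 and Extl3 at -0.25 ± 0.07 (SE). Of the 19, 0 were called higher. Among all named genes 6.38% were called in this comparison in either direction, and 3.31% were called higher. There Idua held without any 1 mouse, Naglu was lost without fasted 11, fasted 13, high-fat 8 or high-fat 9, and Extl3 held only without fasted 12 or control 2. Under the 11 other settings these calls were lost 3, 5 and 5 times for Idua, Naglu and Extl3, and on the first arrays alone Naglu was at -0.23. Of the 19, 0 were called between high-fat and control livers, where 0.333% of all named genes were called. The median log2 ratio of the 19 was -0.03 in fasted over control, -0.01 in high-fat over control and -0.04 in fasted over high-fat livers, beside medians of 0.0064, 0.0047 and 0.0029 over all named genes. Without adjustment 2 of the 19 had a p under 0.05 in high-fat over control livers, against 326 of all 4799 named genes. The 2 were Ugdh at -0.34 ± 0.09 and Ext2 at -0.20 ± 0.07 (SE). Of the 20 measured genes of this list, Hs6st3 included, only Hs6st3 was called in that comparison. Hs6st3 had been chosen with that comparison in view, so nothing is read from this count.

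Among the core proteins that carry heparan sulfate, 11 of 18 listed were measured. Sdc1, which encodes syndecan-1 of the hepatocyte surface, was 0.77 ± 0.11 higher in fasted than in high-fat livers (SE, adjusted p = 0.000263 by limma), in 5 of 5 pairs. In high-fat over control livers Sdc1 was at -0.52 ± 0.11, lower in 5 of 5 pairs, and its adjusted p of 0.0579 missed the threshold. Sdc4 fell in fasted against control livers by 0.45 ± 0.12 on the log2 scale (SE, adjusted p = 0.0214 by limma). The Sdc4 call was lost without fasted 11, fasted 13, high-fat 8 or any of control 2 to 5 and under 5 of 11 other settings, among them scaled arrays (-0.29) and first arrays alone (-0.15). The Sdc1 call held without any 1 mouse and was lost under 2 settings. The other cores were not called, and the medians of the list were -0.08, -0.06 and -0.08 in fasted over control, high-fat over control and fasted over high-fat livers.

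Of 37 collagen chains 13 others were measured and 0 were called in any comparison, with medians of -0.08, 0.01 and 0.03. Of these 13, 1 had an unadjusted p under 0.05 in fasted over control livers and 0 in either of the other comparisons, against 1020 of all 4799 named genes in fasted over control, 326 in high-fat over control and 888 in fasted over high-fat livers. A count of 0 of 13 is close to the shares of all named genes that were called. Of 31 genes for collagen modification, folding and processing 11 others were measured and 0 were called, with medians of 0.02, 0.01 and -0.05, while 3, 0 and 1 of them had an unadjusted p under 0.05. Of 31 further proteoglycan genes 15 others were measured. Bcan, which encodes brevican, rose in fasted against control livers by 0.59 ± 0.15 (SE, adjusted p = 0.0179 by limma). Its value was 0.37 without fasted 15 and 0.0684 on the first arrays alone, and the call was lost without fasted 13 or control 5 and under 3 of 11 other settings. Chst12, a chondroitin sulfotransferase, was at -0.30 ± 0.08 in fasted over high-fat livers (SE, adjusted p = 0.0443 by limma). This call held only without high-fat 8, control 2 or control 3, was lost for the other 12 mice and under 7 of 11 other settings, and the second spot alone gave -0.17. The medians of the 15 were -0.05, 0.02 and -0.05, in the order used above.

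**Figure D5:**
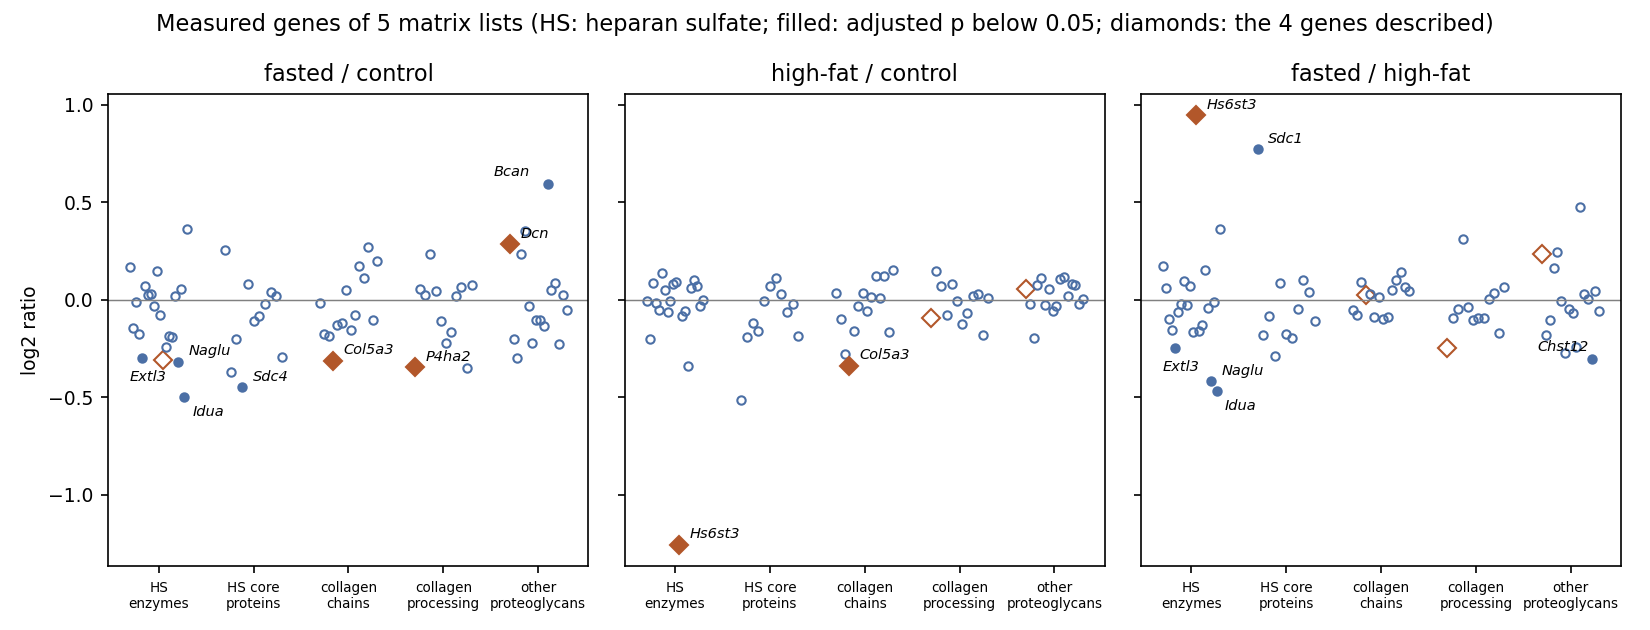
Log2 ratio of every measured gene of the 5 matrix lists in fasted over control, high-fat over control and fasted over high-fat livers; diamonds are the 4 genes described, circles the others, filled symbols have an adjusted p below 0.05 and carry their names. In high-fat over control livers Hs6st3 at -1.26 and Col5a3 at -0.34 are the only filled points.

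Cell type markers were set beside these values. Of 25 markers of stellate cells and fibroblasts, 10 besides Dcn were measured. In fasted over control livers 1 of the 10 rose and 0 fell, where 4.15% of named genes were called higher and 5.54% lower. The 1 was Pdgfra at 0.37 ± 0.09 (SE, adjusted p = 0.0188 by limma), and the median over the 10 was -0.02. Of the 10, 2 others had an unadjusted p under 0.05 and were lower, Vim at -0.42 ± 0.18 and Thy1 at -0.24 ± 0.11 (SE). The mean level of the 10 in the ring was -0.06 in fasted mice (range -0.28 to 0.06), -0.01 in high-fat mice (-0.10 to 0.04) and 0 in control mice (-0.15 to 0.27). Of 6 Kupffer cell markers 4 fell in fasted against control livers, where 5.54% of named genes were called lower, with a median of -0.44 in fasted over control and -0.23 in high-fat over control livers. Their mean level in the ring was -0.43 in fasted mice (-0.77 to -0.07), -0.22 in high-fat mice (-0.40 to -0.05) and 0 in control mice (-0.21 to 0.14). Of 7 endothelial markers, Kdr and Tek fell in fasted against control livers, beside the 5.54% of named genes called lower. Of 5 hepatocyte markers, Apoa1 rose and Ttr fell there, beside 4.15% of named genes called higher and 5.54% lower. Of 3 bile duct markers 0 were called. Between high-fat and control livers 0 markers of these lists were called, where 0.333% of named genes were called. Still, 4 of the 6 Kupffer cell markers had an unadjusted p under 0.05 there, against 326 of 4799 named genes. All 6 had ratios below 0. Whether the cell makeup of the livers has a part in the values of the 4 genes was not tested.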

How the data were processed

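Liver RNA of 15 mice was measured on 28 arrays with 2 dyes, per the labels. Each spot of an array has 1 value in the table the authors deposited, their processed dye ratio, taken here as a log2 ratio; neither base nor direction is stated. Of tools, the submitters' processing notes name limma alone, without a version. The sources used here do not give how background, normalization and weak spots were handled. By array, the median of these log2 ratios lay between -0.229 and 0.349 and their standard deviation between 0.293 and 1.26.

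The direction was read as the second-named over the first-named liver of each title, because the first array of a swap lists Cy5 for the second-named liver. The second arrays reverse both the title and the listed dyes, which taken literally leaves the dyes unexchanged; the exchange was taken from the design text's mention of dye swaps. Spots were named from the platform annotation: 9758 of 16416 carried 1 symbol, 6658 none and 0 several, and all 4799 symbols matched a RefSeq gene table by Entrez number. That table gave chromosomes, and a RefSeq promoter table of the assembly GRCm38.p6 gave sequences. The 2 spots of a gene were averaged, and so were both arrays of a swap after turning, as 1 replicate. The mice are separate animals, per the titles.

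All 14 pairs were fitted by generalised least squares with 3 groups in limma 3.58.1 (R 4.3.3; lmFit, contrasts.fit, eBayes; 12 residual and 4.51 prior degrees of freedom), since pairs that share a mouse are correlated. The between-mouse share of variance was 18.1%, the mean over features after trimming a fraction of 0.15 from each end. Adjustment was by Benjamini-Hochberg, across all 11457 features, with a threshold of 0.05, and 95% intervals come from the moderated fit. Ring levels are least squares values of the 12 linked pairs, with no test. The scripts were tested on simulated data. Alternatives were array centring and scaling, direct pairs only, 1 array or 1 spot, other between-mouse shares, adjustment over named genes, and each mouse left out with the share kept.

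The genes described, the 5 matrix lists and the marker lists were chosen with earlier results of these data known. Besides the 4 genes, the text names list genes past the threshold (at most 6 per list), close relatives of the 4 genes where measured, and the 3 genes most like each in uncentred correlation over the 14 pairs. P4ha1, P4ha3 and Lum are not analysed here.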

Additional observations from a re-analysis of the deposited data

Results flagged for a closer look

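In the fasted/high-fat pairs, the Col5a3 ratio of mice 15 and 10 stood apart from the other pairs, at -0.1045 on the log2 scale, while the other 4 ran from 0.12 to 0.16. The gap from this pair to the next was too wide for a group of 5 by Dixon's criterion. Both arrays of that swap were below 0, at -0.19 and -0.02. Of 24 groups of values looked at in this way, 1 stood out, and chance gives about 1 in 20.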

How the results depend on the processing

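The ratios of the 4 genes, of their close relatives and of list genes in the comparison that called them were recomputed under 11 other settings and with each of the 15 mice left out, and the route difference under 9 settings. Cell type markers and the genes most like the 4 were not recomputed. With direct pairs only, Hs6st3 in fasted over control livers turned to 0.0476, and the values of Col5a3 (-0.39), Dcn (0.26) and P4ha2 (-0.35) lost their calls, as did Col5a3 in high-fat over control livers (-0.28); this setting uses fewer pairs. With the between-mouse share set to 0.9, no call of the 4 genes held: in fasted over control livers Col5a3 was at -0.30, Dcn at 0.30 and P4ha2 at -0.36, in high-fat over control livers Hs6st3 was at -1.29 and Col5a3 at -0.33, and in fasted over high-fat livers Hs6st3 was at 0.92. The difference between the routes of Hs6st3 was then called, at 0.88 (adjusted p = 0.000719 by limma, against 0.906 with the estimated share). With the share set to 0.5, calls were lost by Dcn (0.29) and P4ha2 (-0.35) after the fast and by Col5a3 after the fat-rich diet (-0.34).

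With the first arrays only, Col5a3 (-0.18) and P4ha2 (-0.23) in fasted over control and Col5a3 (-0.22) in high-fat over control livers were not called, P4ha2 in high-fat over control livers turned to 0.0148, and Dcn in fasted over high-fat livers was called at 0.38. With the second arrays only, Dcn turned to -0.0506 in fasted over control and -0.14 in high-fat over control livers, and P4ha2 (-0.46) and Col5a3 (-0.46) lost their calls in these comparisons. With the first spot only, Col5a3 (-0.27), Dcn (0.25) and P4ha2 (-0.40) after the fast and Col5a3 (-0.34) after the diet lost their calls. With the second spot only, P4ha2 (-0.29) after the fast and Col5a3 (-0.33) after the diet did so, and Col5a3 in fasted over high-fat livers turned to -0.0206. Centring the arrays ended the calls of P4ha2 (-0.33) after the fast and Col5a3 (-0.33) after the diet. Scaling them too ended those of Dcn (0.35) and P4ha2 (-0.28) after the fast and turned P4ha2 in high-fat over control livers to 0.0034. The causes were not tested.

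The 465 named genes called in fasted over control livers became 57 with direct pairs, 1493 with first arrays and 79 with a share of 0.9. The 16 in high-fat over control livers became 30 with centring, 52 with scaling, 6 with direct pairs, 170 with first arrays, and 32, 7 and 2 with shares of 0, 0.5 and 0.9. The 306 in fasted over high-fat livers became 87 with direct pairs, 474 with first arrays, 78 with second arrays and 61 with a share of 0.9.

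Leaving out 1 mouse gave, in fasted over control livers, -0.44 to -0.20 for Hs6st3, -0.33 to -0.28 for Col5a3, 0.24 to 0.36 for Dcn, -0.44 to -0.22 for P4ha2 and 254 to 526 called genes. In high-fat over control livers it gave -1.36 to -1.08 for Hs6st3, -0.36 to -0.32 for Col5a3, 0.0074 to 0.13 for Dcn, -0.19 to 0.0142 for P4ha2, above 0 without control 2, and 5 to 36 called genes. In fasted over high-fat livers it gave 0.84 to 1.05 for Hs6st3, 0.0018 to 0.06 for Col5a3, 0.15 to 0.29 for Dcn, -0.33 to -0.20 for P4ha2 and 182 to 407 called genes. The route difference of Hs6st3 ran from 0.67 to 1.05.

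Among the related genes, first arrays alone turned Hs6st1 to -0.28, -0.12 and -0.16 in fasted over control, high-fat over control and fasted over high-fat livers, Naglu to 0.0047 and Col5a2 to 0.0067 in fasted over control livers, where Naglu had been called, and Hs6st2 to -0.40 and Bgn to 0.16 in high-fat over control livers. Second arrays alone turned Hs6st2 to 0.82 in fasted over control livers, where first arrays gave -0.97 and both were called, and to 0.24 in fasted over high-fat livers, where first arrays gave -0.57, and Col5a1 to 0.0425 in high-fat over control livers. Scaling turned Hs6st2 to -0.0376 and Bgn to 0.0833 in high-fat over control livers. With 1 mouse left out, Bgn in high-fat over control livers ran from -0.11 to 0.10, Col5a2 from -0.39 to 0.0106 in fasted over control and -0.0525 to 0.19 in fasted over high-fat livers, and Col5a1 from -0.25 to 1.80e-05 in fasted over high-fat livers.

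No paired analysis was possible because mice of different groups share no number; the only link between groups in the titles is the pair on each array, which every ratio already holds.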
